A study of Mus musculus with 6 samples.

Results

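The xenobiotic enzyme genes described here are the genes of phase 1 and phase 2 drug metabolism, together with the efflux pumps of the Abcc family, that the authors listed as differing between intestinal epithelial cells of mice given Akkermansia muciniphila (Akk, a mucin-degrading gut bacterium) and of mice given PBS. They were chosen by name: a symbol that starts with Cyp and a digit (without Cyp51), Ugt, Gst, Sult, Aldh, Akr, Adh, Ces, Fmo, Ephx, Cbr or Abcc. The rule found 14 of the 1386 genes and loci in the deposited table, and no member came from Sult, Adh, Fmo, Cbr or Abcc. All mice were wild type (WT) and ate normal chow. From an age of 8 weeks the Akk group received 400000000 bacteria by mouth each day for 7 weeks, and the control group received PBS in the same way. Messenger RNA was sequenced in 3 libraries of each group, numbered 1 to 3. Whether each library came from its own mouse is not stated, and the p-values reflect variation among libraries only, part of which may be technical. The strain and sex of the mice are not given in the labels, and the title alone names the jejunum.

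Phase 1 enzymes add or uncover a reactive group on a foreign molecule, by oxidation (cytochromes P450, aldehyde dehydrogenases), reduction (aldo-keto reductases) or hydrolysis (carboxylesterases, epoxide hydrolases). Phase 2 enzymes then attach glutathione (Gst), glucuronic acid (Ugt) or sulfate (Sult), and Abcc pumps export the conjugates. In the small intestine these proteins form a first barrier to compounds in food and bile, many of them are most abundant in the absorptive enterocytes of the villus, and several are controlled by the aryl hydrocarbon receptor (Ahr), the pregnane X receptor (Pxr) or the oxidative stress factor Nrf2. Bulk RNA cannot tell fewer cells of a type from less RNA per cell.

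Every gene in the table was selected by the authors on the same 6 libraries: the largest p-value in the authors' deposited table is 0.0498 and its smallest fold is 1.5. The direction of each gene was thereby fixed, and a gene that is not listed either missed the threshold or was not measured. The depth implied by the ratio of count to FPKM (fragments per kilobase of transcript, scaled to sequencing depth) was 33679033 to 41989626 fragments per library, of which counts of the 14 genes made up 23694 to 40386. PBS replicate 2 stood apart. Its Pearson correlation of log2 depth-scaled counts over the listed genes was 0.73 to 0.76 with the other PBS libraries, against 0.98 between those, and genes are not independent replicates. Its summed FPKM was 10004 for 13 listed Paneth cell markers of 16, against 245 and 276 in PBS replicates 1 and 3 and 185 to 219 in Akk. For 21 listed proliferation genes of 22 it was 604, against 51.7 and 64.1 in the other PBS libraries and 29.0 to 40.8 in Akk. For 9 listed crypt stem cell markers of 18 it was 679, against 17.9 and 19.0 in PBS and 8.97 to 12.2 in Akk. For 5 listed villus enterocyte markers of 20 it was 585, against 2025 and 3495 in PBS and 4457 to 5716 in Akk. No listed marker of these lists was at 0 in any library. The fit of each of the 14 genes is therefore given with and without PBS replicate 2.

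Of the 14 genes, 5 were listed as higher in Akk and 9 as lower, whereas 25% of all listed genes were higher. By role, both P450 genes (Cyp1a1 and Cyp3a44) were higher. The other phase 1 enzymes were split, with Ephx2 and Ces1d higher and Aldh1b1, Akr1b3, Akr1c13 and Ces1e lower. Of the 6 conjugation genes, Gstt1 was higher and Gsta3, Gstp3, Gstcd, Ugt2b35 and Ugt2b36 were lower. The annotation holds 255 protein-coding genes that fit the naming rule, so 5.49% of them were listed, close to the 6.01% listed of all protein-coding genes. Shares by family were 2 of 99 for Cyp, 4 of 23 for Gst, 2 of 22 for Ugt, 2 of 19 for Ces, 2 of 17 for Akr, 1 of 21 for Aldh and 1 of 4 for Ephx, against 0 of 21 for Sult, 0 of 10 for Abcc, 0 of 8 for Fmo, 0 of 7 for Adh and 0 of 4 for Cbr.

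**Figure D1:**
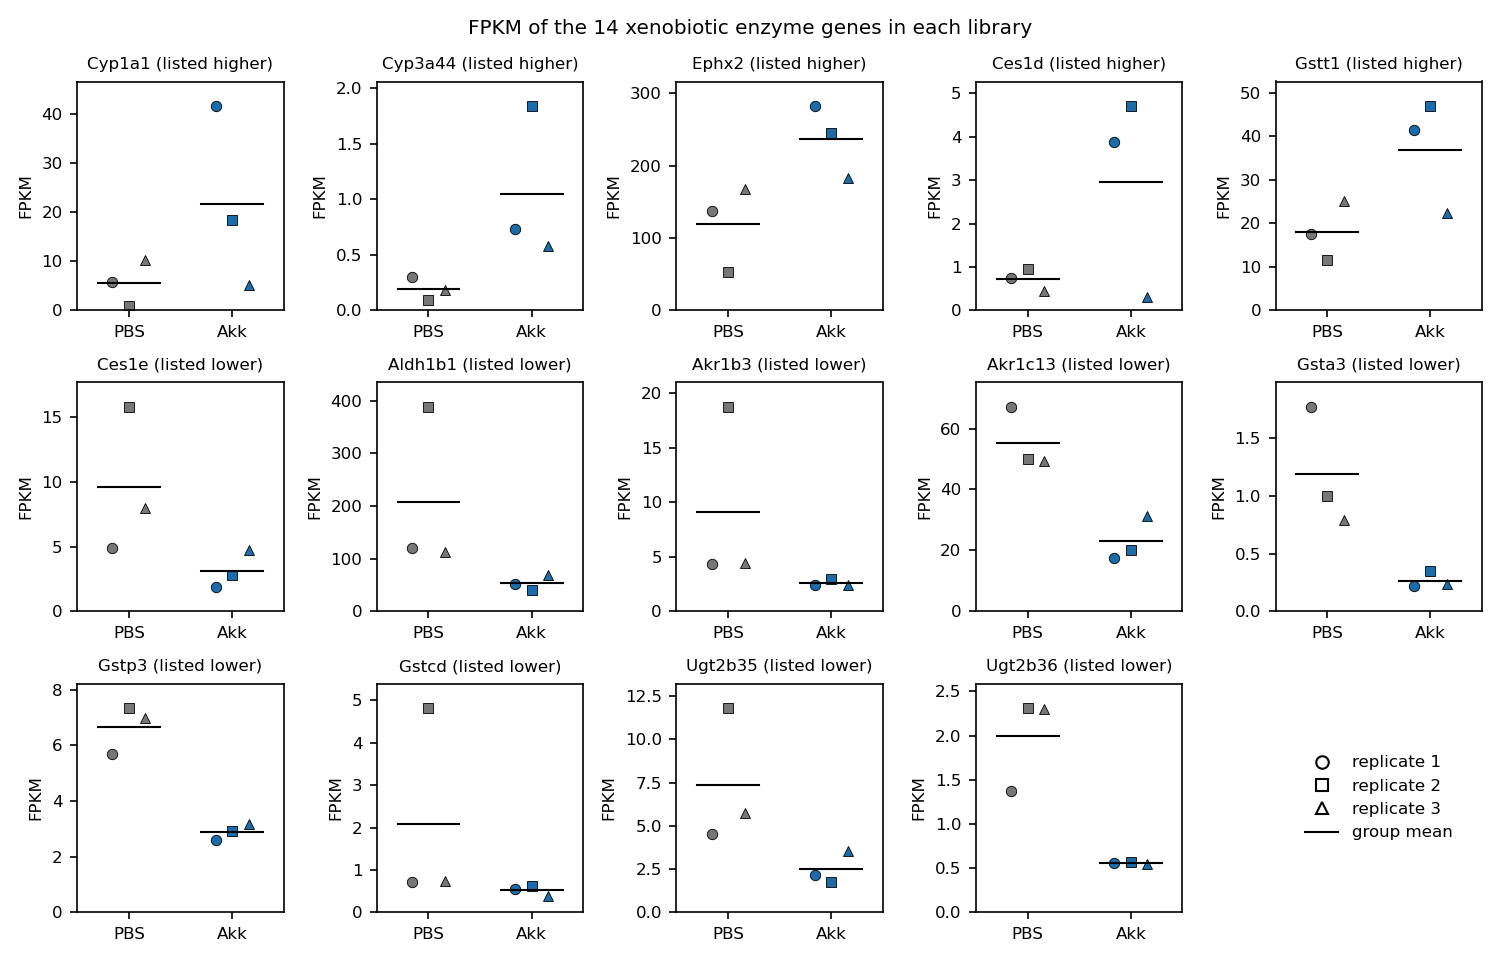
FPKM (vertical axes, linear from 0, a separate scale for each gene) of the 14 genes in the 3 PBS (grey) and 3 Akk (blue) libraries; symbols mark the replicate number and the line is the group mean. The 9 genes listed as lower show no overlap between the groups, as did 86.6% of all genes listed as lower. Cyp1a1, Ces1d and Gstt1 overlap through Akk replicate 3, and 37.6% of all genes listed as higher showed no overlap.

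Cyp1a1 oxidises polycyclic aromatic compounds and is the best known target of the Ahr. It lies on chromosome 9 (57687928 to 57703824, plus strand, GRCm38). The start site in RefSeq lies inside the span that GENCODE M21 gives the gene. The promoter there is shown because Cyp1a1 is the classic Ahr target. It runs from 250 bases before to 50 bases after the start site (chr9:57697363-57697662, plus strand, RefSeq, GRCm38.p6), and capitals mark matches to the Ahr response core GCGTG and to the TATA box TATAAA.
Cyp1a1 promoter: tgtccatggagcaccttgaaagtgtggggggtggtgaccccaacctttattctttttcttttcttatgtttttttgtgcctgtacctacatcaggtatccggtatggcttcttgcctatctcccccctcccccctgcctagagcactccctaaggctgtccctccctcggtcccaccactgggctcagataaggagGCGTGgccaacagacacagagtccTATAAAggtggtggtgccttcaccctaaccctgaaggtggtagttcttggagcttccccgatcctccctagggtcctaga
The GCGTG match begins 54 bases and the TATAAA match 30 bases upstream of the start. Searched on both strands, GCGTG is found in 32.4% and TATAAA in 13.6% of all 32851 RefSeq promoter windows of this length, and 3 of the 11 members with such a window hold GCGTG (Cyp1a1, Gstp3 and 1 of the 2 windows of Gstcd). Such a match is a run of letters, not a binding site.

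Cyp1a1 had an FPKM of 41.7, 18.4 and 5.28 in Akk replicates 1 to 3, and of 5.70, 0.923 and 10.3 in PBS replicates 1 to 3. The groups overlapped, since Akk replicate 3 lay below PBS replicates 1 and 3. The means were 21.8 ± 18.5 and 5.63 ± 4.67 (SD, n = 3 each), 3.88-fold higher in Akk, and the fitted log2 fold change was 1.95 (SE 0.99; edgeR adjusted p = 0.109). The spread inside each group was thus close to the group mean. Leaving out single libraries moved the estimate between 1.07 (without Akk replicate 1) and 2.71 (without PBS replicate 3), and without PBS replicate 2 it was 1.45 (SE 0.79; edgeR adjusted p = 0.141). A list of 12 Ahr target genes was drawn up with earlier results of these data known. Of these, Cyp1a1 and Nqo1 were listed, in opposite directions, where 6.01% of all protein-coding genes were listed. Cyp1a2, Cyp1b1, Ahrr and Tiparp were not listed.

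Cyp3a44 belongs to the Cyp3a subfamily, the P450 enzymes with the broadest range of drug substrates, and lies on chromosome 5 (145773983 to 145805874, minus strand). Its counts were low. They were 23, 7 and 15 for PBS, in the order of the replicate numbers, and 61, 143 and 43 for Akk. The lowest count of 7 has a 95% exact Poisson interval of 2.81 to 14.4, which covers counting error only. The FPKM values were 0.302, 0.0908 and 0.186 in PBS and 0.735, 1.84 and 0.581 in Akk. Every Akk library lay above every PBS library. The Poisson interval was 14.6 to 34.5 for the highest PBS count, 23, and 31.1 to 57.9 for the lowest Akk count, 43. The intervals of 23 and 43 thus overlap. The means were 1.05 ± 0.687 and 0.193 ± 0.106 (SD, n = 3 each), the log2 fold change was 2.36 (SE 0.63; edgeR adjusted p = 0.0861), and without PBS replicate 2 it was 2.06 (SE 0.62; edgeR adjusted p = 0.0565). It was the sole listed gene of 29 in the list of Pxr and Car (constitutive androstane receptor) targets, where 6.01% of all protein-coding genes were listed. Among the 14 genes it had the largest fold in the authors' deposited table, where its log2 fold change of 1.63 was smaller than the fitted 2.36. Its promoter (chr5:145805825-145806124, minus strand, RefSeq, GRCm38.p6) is shown with its single TATAAA match in capitals, which begins 122 bases upstream of the start.
Cyp3a44 promoter: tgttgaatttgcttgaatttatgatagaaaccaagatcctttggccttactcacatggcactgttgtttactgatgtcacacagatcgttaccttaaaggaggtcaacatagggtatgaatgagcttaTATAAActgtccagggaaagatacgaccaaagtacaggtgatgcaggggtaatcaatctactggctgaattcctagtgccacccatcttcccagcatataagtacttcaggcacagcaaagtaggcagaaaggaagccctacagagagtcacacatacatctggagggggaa
This window holds no GCGTG.

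Reads of Cyp3a44 and Akr1c13 can come from close relatives. The coding sequence of Cyp3a44 is 95.8% identical to that of Cyp3a41a (64 of 1512 bases differ), and that of Akr1c13 is 96.2% identical to that of Akr1c12 (37 of 969 differ), from GENCODE M21 transcripts. Of the 100-base windows of the Cyp3a44 transcript 5.37% occur unchanged in a transcript of another gene, as do 11.5% for Akr1c13, 1.46% for Cyp1a1 (shared with Cyp1a2) and 50.6% for Akr1b3 (shared with processed pseudogenes such as Gm6644). For the other 10 members no such window was shared, and none of the named relatives was listed. With windows of 50 bases the shares were 26.45% for Cyp3a44, 28.6% for Akr1c13, 3.55% for Cyp1a1 and 59.9% for Akr1b3. They were 0.303% to 3.21% for Ces1d, Ces1e, Ugt2b35 and Ugt2b36. The stretches in which each pair differs most are shown, since only reads over such bases can be assigned; capitals mark bases that differ within the pair. Positions 603 to 702 of the Cyp3a coding sequences differ at 9 bases, and positions 303 to 402 of the Akr1c coding sequences at 12.
Cyp3a44: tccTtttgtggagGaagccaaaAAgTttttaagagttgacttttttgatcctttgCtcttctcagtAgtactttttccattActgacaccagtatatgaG
Cyp3a41a: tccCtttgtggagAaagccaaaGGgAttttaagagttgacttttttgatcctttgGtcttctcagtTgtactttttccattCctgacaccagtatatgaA
Akr1c13: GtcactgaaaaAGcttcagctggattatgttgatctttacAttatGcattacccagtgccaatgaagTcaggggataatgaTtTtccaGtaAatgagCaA
Akr1c12: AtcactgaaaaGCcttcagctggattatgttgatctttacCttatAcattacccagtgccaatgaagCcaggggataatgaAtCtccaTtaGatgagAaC
How the authors' counting divided shared reads is not given in the sources used here, so the values of these 4 members are uncertain, most of all that of Akr1b3.

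Ephx2, soluble epoxide hydrolase, converts epoxides of fatty acids into diols (chromosome 14, 66084374 to 66124500, minus strand). By length-scaled level it was the most abundant of the 14 genes averaged over the 6 libraries. Its FPKM was 283, 245 and 184 in Akk replicates 1 to 3 and 137, 53.6 and 168 in PBS replicates 1 to 3. The groups did not overlap, although Akk replicate 3 and PBS replicate 3 were close. The means were 237 ± 49.9 and 119.6 ± 59.2 (SD, n = 3 each), 1.98-fold higher in Akk, with a log2 fold change of 0.99 (SE 0.50; edgeR adjusted p = 0.107). Without PBS replicate 2 it was 0.64 (SE 0.25; edgeR adjusted p = 0.0822).

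The carboxylesterases Ces1d and Ces1e are neighbours on the minus strand of chromosome 8 (93166068 to 93197838 and 93201218 to 93229619), 3379 bases apart, and were listed in opposite directions. Ces1d, which hydrolyses esters and triglycerides, had an FPKM of 3.88, 4.71 and 0.315 in Akk replicates 1 to 3 and of 0.736, 0.947 and 0.457 in PBS. Akk replicate 3 was thus the lowest of all 6 libraries, with 24 counts against 327 and 372 in the other Akk libraries. Ces1e had 1.85, 2.84 and 4.73 in Akk and 4.92, 15.8 and 7.99 in PBS, with no overlap, and Akk replicate 3 was just below PBS replicate 1. The ratio of Ces1d to Ces1e by FPKM was 2.10 and 1.66 in Akk replicates 1 and 2, and 0.0665 in Akk replicate 3, within the PBS range of 0.0572 to 0.150. The log2 fold change was 2.06 (SE 0.96; edgeR adjusted p = 0.0922) for Ces1d and -1.56 (SE 0.73; edgeR adjusted p = 0.0921) for Ces1e. Without PBS replicate 2 the values were 2.32 (SE 1.0015) and -1.01 (SE 0.42), with edgeR adjusted p of 0.0929 and 0.0883. The coding sequences of Ces1d and Ces1e are 80.3% identical, with no stretch of more than 35 identical bases in a row, and the other 6 genes of the Ces1 cluster were not listed.

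Aldh1b1, a mitochondrial aldehyde dehydrogenase known from the crypt base, lies on chromosome 4 (45799022 to 45804604, plus strand). In PBS its FPKM was 119, 388 and 114 for replicates 1 to 3, and in Akk it was 52.0, 41.2 and 70.0. PBS replicate 2 was 3.33-fold above the average of its fellow PBS libraries, which themselves exceeded all Akk libraries. The log2 fold change was -1.93 (SE 0.59; edgeR adjusted p = 0.0861), and -1.10 (SE 0.25; edgeR adjusted p = 0.0411) without PBS replicate 2. Akr1b3, aldose reductase, which reduces glucose and reactive aldehydes (chromosome 6, 34302434 to 34317478, minus strand), had 4.31, 18.8 and 4.41 in PBS and 2.43, 2.997 and 2.40 in Akk. Its log2 fold change was -1.80 (SE 0.81; edgeR adjusted p = 0.0888), and -0.74 (SE 0.22; edgeR adjusted p = 0.0538) without PBS replicate 2.

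Akr1c13, an aldo-keto reductase of steroids and carbonyl compounds (chromosome 13, 4191150 to 4205596, plus strand), was different in that PBS replicate 2 did not stand out. In PBS its FPKM was 67.1, 49.9 and 49.3 for replicates 1 to 3, and in Akk it was 17.4, 20.1 and 31.4. The means were 55.4 ± 10.1 and 23.0 ± 7.42 (SD, n = 3 each), a level 2.41-fold higher in PBS. The log2 fold change was -1.27 (SE 0.48; edgeR adjusted p = 0.0861) with all libraries and -1.34 (SE 0.29; edgeR adjusted p = 0.0409) without PBS replicate 2.

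Among the glutathione transferases, 3 genes were listed as lower and Gstt1 as higher. Gsta3, an alpha-class enzyme that conjugates products of lipid peroxidation and aflatoxin epoxide, lies on chromosome 1 (21240589 to 21265661, plus strand). Its counts were 84, 43 and 40 for PBS, in the same order, and 14, 20 and 13 for Akk. The FPKM values were 1.77, 0.9997 and 0.790 in PBS and 0.217, 0.348 and 0.233 in Akk, so that the lowest PBS library was above every Akk library. The means were 1.19 ± 0.517 and 0.266 ± 0.0715 (SD, n = 3 each), 4.46-fold higher in PBS by FPKM. The fit of the counts gave a smaller difference. The lowest count of 13 has a 95% exact Poisson interval of 6.92 to 22.2. For the highest Akk count, 20, it is 12.2 to 30.9, and for the lowest PBS count, 40, it is 28.6 to 54.5. The intervals of 20 and 40 thus overlap. The log2 fold change was -1.92 (SE 0.46; edgeR adjusted p = 0.0861) and -2.03 (SE 0.47; edgeR adjusted p = 0.0413) without PBS replicate 2. Its promoter (chr1:21240335-21240634, plus strand, RefSeq, GRCm38.p6) is shown because Gsta3 is on the list of Nrf2 targets; capitals mark the match to the antioxidant response core TGACNNNGC, which begins 121 bases upstream of the start.
Gsta3 promoter: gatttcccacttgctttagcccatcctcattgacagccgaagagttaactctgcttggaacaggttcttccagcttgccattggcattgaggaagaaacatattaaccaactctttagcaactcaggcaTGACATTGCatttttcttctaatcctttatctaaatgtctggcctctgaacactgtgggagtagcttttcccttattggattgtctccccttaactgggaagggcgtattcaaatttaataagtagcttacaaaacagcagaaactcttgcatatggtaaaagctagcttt
This core, searched on both strands, is found in 12.4% of all RefSeq promoter windows, and Gsta3 was the single one of the 11 members with a window to hold it.

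Gstp3, a pi-class enzyme on chromosome 19 (4057477 to 4059569, minus strand), had the narrowest spread in PBS relative to its mean, with an FPKM of 5.70, 7.34 and 6.97 against 2.58, 2.94 and 3.18 in Akk. The means were 6.67 ± 0.858 and 2.90 ± 0.2996 (SD, n = 3 each), a gap well beyond the spread in either group. The log2 fold change was -1.20 (SE 0.55; edgeR adjusted p = 0.08995) with all libraries and -1.13 (SE 0.24; edgeR adjusted p = 0.0409) without PBS replicate 2. Gstcd, which carries a glutathione transferase C-terminal domain (chromosome 3, 132981752 to 133092033, minus strand), had 0.722, 4.82 and 0.743 in PBS and 0.551, 0.615 and 0.398 in Akk. PBS replicate 2 was 6.58-fold above the mean of the other PBS libraries, and without it the log2 fold change went from -2.004 (SE 0.91; edgeR adjusted p = 0.0896) to -0.50 (SE 0.29; edgeR adjusted p = 0.161). The exons of Gstcd overlap those of Ints12 on the opposite strand over 100 bases.

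Gstt1, the theta-class enzyme that conjugates small halogenated compounds (chromosome 10, 75783813 to 75798584, minus strand), had an FPKM of 41.4, 46.9 and 22.4 in Akk replicates 1 to 3 and of 17.5, 11.6 and 25.2 in PBS. Akk replicate 3 lay between PBS replicates 1 and 3. The means were 36.9 ± 12.9 and 18.1 ± 6.82 (SD, n = 3 each), 2.04-fold higher in Akk, with a log2 fold change of 1.03 (SE 0.57; edgeR adjusted p = 0.134) and of 0.79 (SE 0.36; edgeR adjusted p = 0.0999) without PBS replicate 2.

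The glucuronosyltransferases Ugt2b35 and Ugt2b36, which make steroids, bile acids and drugs water-soluble, lie 52651 bases apart on chromosome 5 (87000860 to 87013275, plus strand, and 87065927 to 87092555, minus strand). Their coding sequences are 88.5% identical, and both were listed as lower. Ugt2b36 had an FPKM of 1.37, 2.31 and 2.30 in PBS and of 0.553, 0.566 and 0.543 in Akk, the narrowest spread relative to the mean of any Akk group among the 14 genes. The Akk counts were only 44, 43 and 38. The 95% exact Poisson interval of 38 is 26.9 to 52.2, so this spread is narrower than counting error alone and does not show precision. The means were 1.99 ± 0.540 and 0.554 ± 0.0118 (SD, n = 3 each), 3.60-fold higher in PBS. Its log2 fold change was -1.83 (SE 0.52; edgeR adjusted p = 0.0861) and -1.72 (SE 0.32; edgeR adjusted p = 0.0352) without PBS replicate 2, and it had the smallest p-value of the 14 in the authors' deposited table (9.07e-05). Ugt2b35 had 4.53, 11.8 and 5.73 in PBS and 2.18, 1.74 and 3.56 in Akk, also without overlap. Its log2 fold change was -1.56 (SE 0.66; edgeR adjusted p = 0.0861), and -1.04 (SE 0.33; edgeR adjusted p = 0.0585) without PBS replicate 2. The other 5 Ugt2b genes and the Ugt1a family were not listed.

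With edgeR's quasi-likelihood test and Benjamini-Hochberg adjustment over the whole table, 0 of the 14 genes passed 0.05 with all 6 libraries, as did 0% of all listed genes. An unadjusted p under 0.05 was reached by 6 of them (Akr1c13, Aldh1b1, Cyp3a44, Gsta3, Ugt2b35 and Ugt2b36), where 57.1% of the listed genes reached it. All 6 shared the adjusted p of 0.0861, though their unadjusted edgeR p ran from 0.00276 (Gsta3) to 0.0450 (Ugt2b35). The adjustment ran only over genes already selected on these libraries, so it gives no false discovery rate over all genes. DESeq2 called 11 of the 14, against 69.9% of the 1124 genes with an adjusted p; the 262 without one were all listed as lower. The called members were 3 of the 5 higher genes (21.4% of all such genes listed as higher) and 8 of the 9 lower genes (91.5% of all such genes listed as lower). Ephx2, Gstt1 and Gstp3 were not called. limma-voom called 0 of the 14 (0.144% of the listed genes). Without PBS replicate 2, edgeR called 5 of the 14 genes, against 19.5% of the listed genes. They were 5 of the 9 lower genes (Akr1c13, Aldh1b1, Gsta3, Gstp3 and Ugt2b36), against 23.7% of all genes listed as lower, and 0 of the 5 higher genes, against 6.94% of all genes listed as higher. Aldh1b1, Cyp3a44, Gsta3 and Ugt2b36 passed without PBS replicate 1 (53% of the listed genes passed) and without PBS replicate 3 (52.8%). Aldh1b1, Gsta3 and Ugt2b36 thus passed whichever PBS library was left out, as did 13.2% of the listed genes. When any Akk library was left out, 0 members and 0% of the listed genes passed. The groups did not overlap for 9 of the 9 lower genes, against 86.6% of all listed as lower, and for 2 of the 5 higher genes (Cyp3a44 and Ephx2), against 37.6%. Since the authors selected every gene on these libraries, these counts are a description and no independent support.

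**Figure D2:**
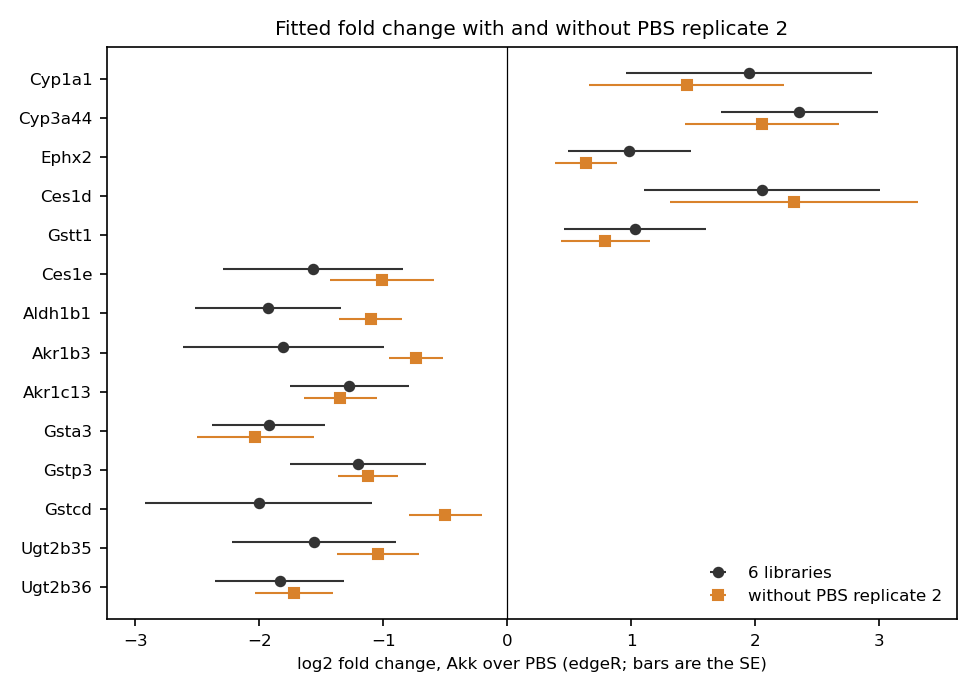
Fitted log2 fold change, Akk over PBS (horizontal axis; bars are the SE of the edgeR fit), of the 14 genes with all 6 libraries (dark circles) and without PBS replicate 2 (orange squares). Gsta3 is at -1.92 with all libraries and at -2.03 without PBS replicate 2, and Gstcd at -2.004 and -0.50.

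The 9 lower genes thus fell into those that were raised in PBS replicate 2 and those that were not, a division made after the values were seen. PBS replicate 2 was the highest of all 6 libraries for 7 of the 9, against 98.3% of all genes listed as lower, and the exceptions were Akr1c13 and Gsta3. PBS replicate 2 was 2.30 to 6.58 times the mean of PBS replicates 1 and 3 for Ugt2b35, Ces1e, Aldh1b1, Akr1b3 and Gstcd. It was 0.780, 0.858, 1.16 and 1.26 times that mean for Gsta3, Akr1c13, Gstp3 and Ugt2b36. Bounds of 0.75 to 1.33, set with the values known, take in those 4 of 9, and 1.83% of all genes listed as lower, whose median was 5.77. Because the bounds were fitted to the members, these shares describe the genes and are not comparable as a test. The summed crypt stem cell, Paneth cell and proliferation markers were highest in PBS replicate 2, and their part in the result was not tested. The 9 genes had a median log2 fold change of -1.80, or -1.10 if PBS replicate 2 was left out, against -2.19 and -0.78 for all genes listed as lower.

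The 5 higher genes varied with a library of each group. PBS replicate 2 was the lowest library for Cyp1a1, Cyp3a44, Ephx2 and Gstt1 (4 of 5, against 43.1% of all genes listed as higher). It was also lowest for the sum of the 5 listed villus markers of 20, all of them listed as higher in Akk. Akk replicate 3 was the lowest Akk library for all 5, against 68.2% of all genes listed as higher. It lay 13.6-fold below the mean of Akk replicates 1 and 2 for Ces1d, 5.70-fold for Cyp1a1, 2.22-fold for Cyp3a44, 1.97-fold for Gstt1 and 1.44-fold for Ephx2. The same library had a summed FPKM of 116 for the 3 listed duodenal genes of 10 (S100g, Slc40a1 and Cybrd1), against 6.97 and 17.95 in Akk replicates 1 and 2 and 5.22 to 14.3 in PBS. S100g made up 97.7 of the 116. All 3 were listed as higher on these same libraries and were highest in Akk replicate 3, so the sum is not independent of that selection. The villus markers of Akk replicate 3 differed in order: Apoa4 and Apob were lowest of the Akk libraries there (Apoa4 3660, against 4527 and 5057), Ada and Slc28a2 highest (Ada 492, against 101 and 326), and Nt5e in between. Apoa4 makes up most of the summed villus value. The part of these differences in the result was not tested. Without Akk replicate 3 the log2 fold changes of Ces1d, Cyp1a1 and Gstt1 were 2.59, 2.42 and 1.29. The 5 genes had a median log2 fold change of 1.95, or 1.45 if PBS replicate 2 was left out, against 0.74 and 0.70 for all genes listed as higher.

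**Figure D3:**
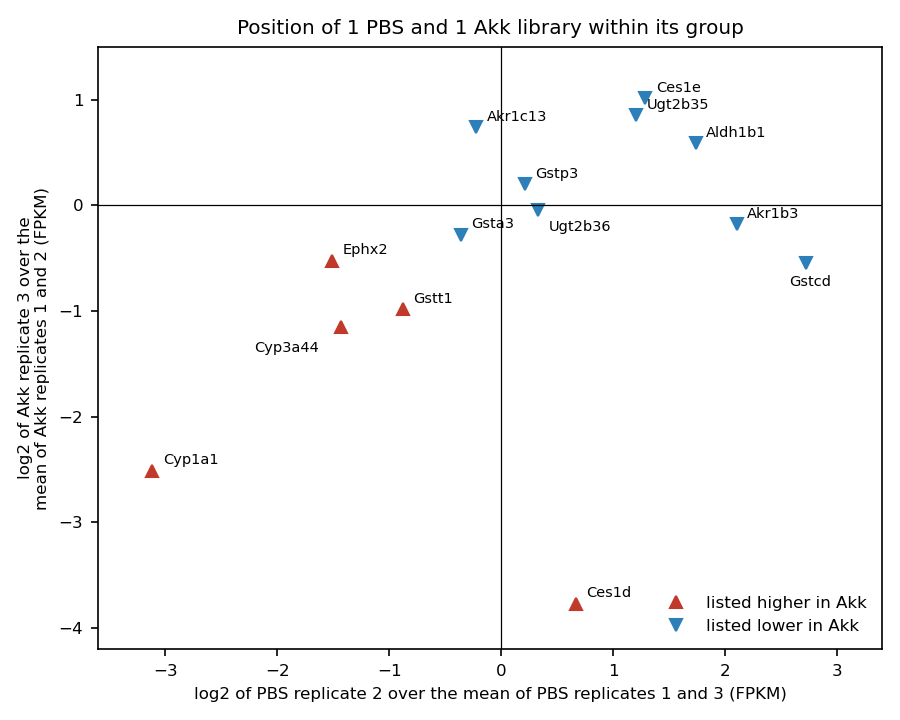
Each of the 14 genes by the log2 ratio of PBS replicate 2 to the mean of PBS replicates 1 and 3 (horizontal axis) and of Akk replicate 3 to the mean of Akk replicates 1 and 2 (vertical axis), from FPKM; red triangles are listed as higher and blue as lower in Akk. Gsta3, Gstp3 and Ugt2b36 lie near 0 on both axes, and all genes listed as higher lie below 0 on the vertical axis.

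**Figure D4:**
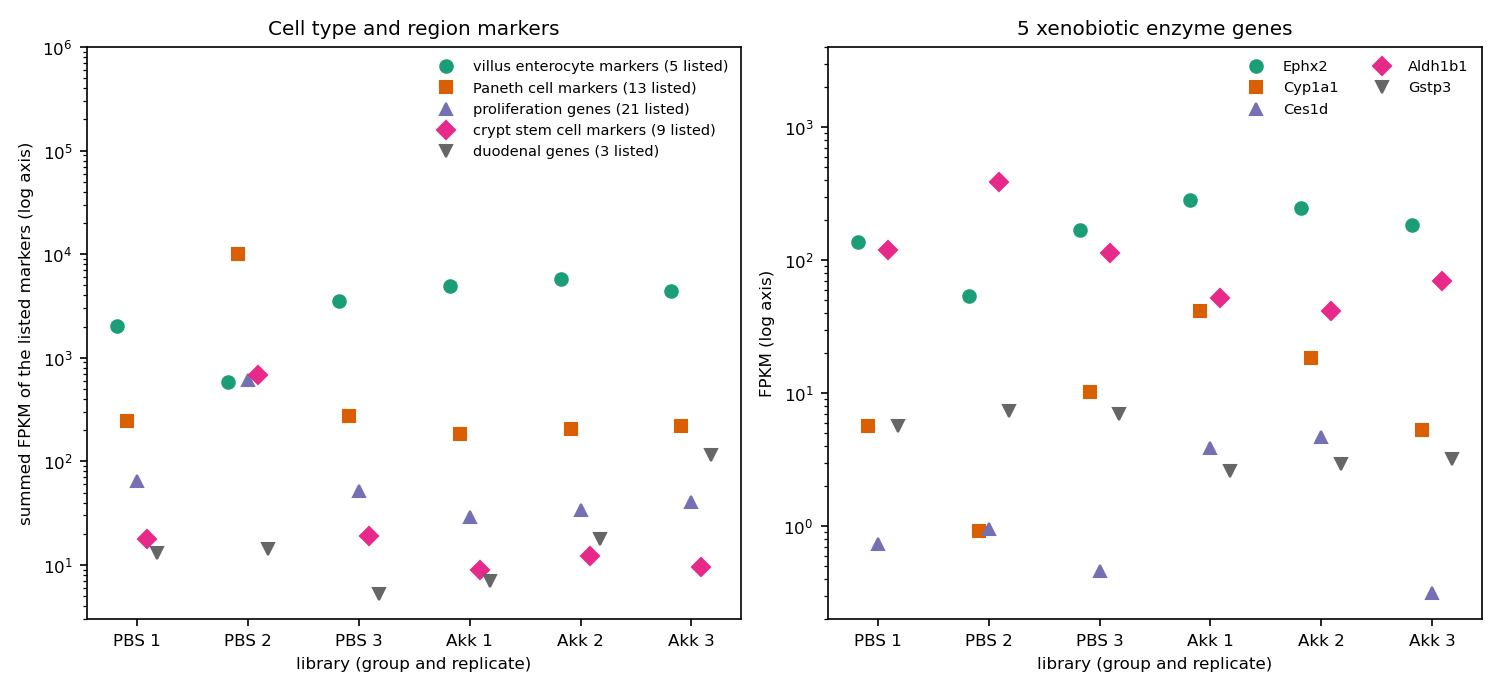
Left, summed FPKM of the listed markers of 5 lists in each library (log axis); right, FPKM of 5 of the xenobiotic enzyme genes (log axis). PBS replicate 2 is high for crypt markers and Aldh1b1 and low for villus markers, Ephx2 and Cyp1a1, Gstp3 changes little within each group, and Akk replicate 3 is high for duodenal genes and low for Ces1d.

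Genes of the pathway outside the naming rule were taken from lists drawn up with earlier results of these data known. Of 47 further genes of foreign compound metabolism, 4 were listed (Nqo1, Gsr, Bche and Slco2b1), where 6.01% of all protein-coding genes were. All 4 were listed as lower in Akk, as were 75% of the listed genes, and had no overlap between groups, as did 86.6% of those listed as lower. Nqo1, a quinone reductase, had an FPKM of 15.1, 19.3 and 15.4 in PBS and 6.06, 6.99 and 7.43 in Akk, so that PBS replicate 2 was little above its group. Its log2 fold change was -1.28 (SE 0.54; edgeR adjusted p = 0.0861) and -1.16 (SE 0.19; edgeR adjusted p = 0.0352) without PBS replicate 2. Slco2b1, an uptake carrier for organic anions, had -2.36 (SE 0.68; edgeR adjusted p = 0.0861) and, without that library, -1.52 (SE 0.22; edgeR adjusted p = 0.0299). Gsr, glutathione reductase, and Bche, butyrylcholinesterase, had log2 fold changes of -1.41 and -1.09 (edgeR adjusted p = 0.0861 and 0.0975). Without PBS replicate 2 these were -0.83 and -0.60 (edgeR adjusted p = 0.0515 and 0.0605). Of the 20 sensors and partners, including Ahr, Arnt, the genes for Pxr and Car, and Nfe2l2, which encodes Nrf2, Ppara alone was listed (log2 fold change -1.33, edgeR adjusted p = 0.102; without PBS replicate 2, -0.94, edgeR adjusted p = 0.0586).

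Of 35 Nrf2 targets, 5 were listed, where 6.01% of all protein-coding genes were. They were Gsta3 and Akr1c13 of the 14 genes, the nuclear protein Pir, and Nqo1 and Gsr, which were already counted above. All 5 were listed as lower in Akk, as were 75% of the listed genes. With all libraries 0 of the 5 passed the adjusted edgeR threshold, and without PBS replicate 2 the 4 other than Gsr did, against 23.7% of all genes listed as lower. The 5 had a median log2 fold change of -1.41, or -1.34 if PBS replicate 2 was left out, against -2.19 and -0.78 for all genes listed as lower. The targets Gclc, Gclm, Txnrd1, Srxn1 and Hmox1 were not listed. Of 23 genes of retinoid handling, Bco1, which cleaves beta-carotene, and Lrat, which esterifies retinol, were listed as higher and the retinol-binding protein Rbp7 as lower. That is 3 of 23, against 6.01% of all protein-coding genes. With all libraries none of the 3 passed in edgeR: the log2 fold change was 1.60 for Bco1, 1.124 for Lrat and -3.51 for Rbp7 (edgeR adjusted p = 0.0864, 0.101 and 0.0861). Without PBS replicate 2 the values were 1.32, 1.20 and -2.32 (edgeR adjusted p = 0.0572, 0.0471 and 0.0306), so Lrat and Rbp7 passed, as did 6.94% of all genes listed as higher and 23.7% of those listed as lower.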

How the data were processed

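RNA-seq of 3 Akk and 3 PBS libraries was analysed. The authors deposited whole-number read counts and FPKM per library, per the file headers. The deposited table also gives each gene's p-value, with no word on adjustment, and its log2 fold change. Total RNA from Trizol was made into Illumina mRNA libraries, per the labels' protocols. The build is mm10, per the submitters' processing notes; aligner, counter and strandedness are not stated in the sources used here. The members and lists were chosen with earlier results of these data known. Every member is named, with other genes from lists of pathway genes, regulators and cell type markers.

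Left out were 2 lines of annotation text; all 1322 Ensembl identifiers matched GENCODE M21 (GRCm38), and 64 loci have no name. Relative depth came from the ratio of count to FPKM over 560 genes with at least 200 counts in every library, and absolute depth from 52 of these with a single annotated transcript. That depth served as library size in edgeR 4.0.16 under R 4.3.3 (quasi-likelihood test after filterByExpr), adjusted over 1386 genes at 0.05. The procedure was tested on simulated data with less spread than these libraries, no outlying library and mostly unchanged genes. That test therefore does not cover the setting of these data. Because every listed gene was selected as differing, TMM, RLE and upper-quartile factors serve as alternatives only, as do other count filters, DESeq2 1.42.0, limma 3.58.1 on voom values or on log2(FPKM + 0.1) and log2(FPKM + 1), a threshold of 0.01, the replicate number as a block, and each library left out. No 2 libraries were identical.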

Additional observations from a re-analysis of the deposited data

How the results depend on the processing

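No fold change of the 14 genes changed sign under any of the 16 alternatives that refit the data. The authors' selection on the same libraries had fixed each direction, so this is a description and no support. With RLE factors Gstcd, Gstp3 and Akr1b3 had log2 fold changes of only -0.08, -0.10 and -0.10. Of 224 such values 24 passed the threshold that the fit of all libraries missed. The 0 members past the threshold became 11 with DESeq2, which reported 786 genes of the table (262 adjusted p were NA), and ranged from 0 to 5 when each library was left out (4, 5 and 4 on leaving out PBS replicates 1 to 3 in turn, and 0 for each Akk replicate). The 0 genes past the threshold over the table ranged from 0 to 734 when each library was left out (734, 270 and 732 without PBS replicates 1 to 3), and became 2 with limma-voom and 1 with limma on log2(FPKM + 0.1); the cause was not tested. With the replicate number as a block 6 genes of the table passed and 0 members, so the block changed no call among the 14 genes; the 3 same-numbered pairs had correlations of deviations from the group means of 0.24, -0.08 and -0.30, and the numbers were not taken to pair the libraries. The count filters, the 0.01 threshold and the TMM, RLE and upper-quartile factors gave 0. Those factors (4.39 for PBS replicate 2 with RLE, 4.00 with TMM) shifted the listed genes' median log2 fold change from -1.85 to -0.15 (RLE), -0.21 (TMM) and -0.63 (upper quartile). The median of the 9 lower members moved from -1.80 to -0.18, -0.22 and -0.62, and that of the 5 higher ones from 1.95 to 2.68, 2.66 and 2.29. The authors' deposited log2 fold changes were smaller in size than the edgeR fit of all libraries for every member but Gstt1 (1.07 against 1.03). For Gstcd the deposited value was -0.96, against -2.004. The reason was not tested. Low counts limit Cyp3a44 and Gsta3 most, and also bear on Ugt2b36 in Akk.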

Other observations

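The ratio of count to FPKM, divided by depth, gives the transcript length that the authors' scaling used. For Ephx2 it was 2034 to 2035 bases in the 6 libraries, where the GENCODE M21 transcript used for the sequence comparison has 2035, and for Akr1b3 1385 to 1395, where that transcript has 1387. For Cyp3a44 it was 1972 to 2289 bases and for Gsta3 1272 to 1536, against transcripts of 1962 and 1457 bases. The implied length of Gsta3 was longer in every Akk than in every PBS library, and that of Cyp3a44 shorter. For these low-count genes the FPKM thus widens the group difference. The log2 ratio of mean FPKM was -2.16 for Gsta3 and 2.45 for Cyp3a44, against -1.92 and 2.36 fitted from counts.

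Of the lists for pancreatic acinar cells, hepatocytes, and ileum and colon, single genes were listed, all as lower in Akk. Being on such a list does not show that the RNA came from that tissue, and its origin was not tested. Clps, pancreatic colipase, the sole listed gene of 12 acinar markers, had an FPKM of 66.1 in PBS replicate 2 and of 1.24 to 2.45 in the other libraries. Cps1, of 10 hepatocyte markers, had 360.04 in PBS replicate 2, against 44.0 and 49.5 in the other PBS libraries and 17.0 to 19.5 in Akk. Car4, of 15 ileal and colonic genes, had 265, 330 and 302 in PBS and 88.4, 119 and 171 in Akk. Of 12 goblet cell markers Zg16 and Muc13 were listed as higher, and of 12 enteroendocrine markers Gip and Sst as higher and Gcg as lower. No marker was listed of the lists for tuft cells, immune cells and stromal cells.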
